A study of Mus musculus with 15 samples.

Results

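The chaperone and protein folding genes of mouse CD8+ T cells were followed across naive cells, cells primed by antigen, and cells primed by antigen with costimulation. The genes were chosen by name alone: the protein-coding genes whose symbol in the GENCODE M21 annotation begins with Hsp90 or Dnaj, with Hspa or Pdia and a digit, or with Cct and a digit from 2 to 8, together with Hspd1, Hspe1, Hsph1 and Tcp1. This gave 78 of the 22028 protein-coding genes in the gene count table. By textbook location, 7 code for subunits of the TRiC/CCT chaperonin, 13 for cytosolic Hsp70, Hsp110 and Hsp90 proteins, 21 for cytosolic and nuclear J proteins, 16 for proteins of the endoplasmic reticulum (ER) and 8 for mitochondrial proteins, and 13 were left unassigned. The filter on low counts kept 67 of them. The other 11 were Hspa12a, Hspa12b, Hspa1l, Dnajc5b, Dnajc5g, Pdia2, Cct8l1, Dnajb3, Dnajb7, Dnajb8 and Dnajc22, for which no test was made.

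Chaperones hold newly made or damaged proteins until they have folded. Hsp70 proteins bind and release short unfolded stretches as they turn over ATP, J proteins deliver clients and start that turnover, and Hsp110 proteins reset the Hsp70 by exchanging its nucleotide. Hsp90 finishes the folding of kinases and receptors, the TRiC ring folds actin and tubulin, the ER set folds secreted and surface proteins, and Hsp60 with Hsp10 folds proteins imported into mitochondria. The cytosolic set is a known target of heat shock factor 1, and the ER set of the unfolded protein response.

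All 15 libraries came from CD8+ T cells of OT-1 Tg C57BL/6J mice (OT-I), whose T cells carry 1 rearranged receptor for the ovalbumin peptide SIINFEKL, so the results hold for a single receptor. Per the methods, the mice lacked Rag1 or Rag2. The Naive libraries (n = 5) came from OT-I mice without any transfer. For the Ag libraries (n = 5), OT-I cells were transferred into C57BL6/J recipients that were given the peptide with a control rat antibody, and spleen and lymph node cells were sorted on day 4 according to the labels. The methods give a slightly earlier time of sorting. The Ag+Costim recipients (n = 5) were given the peptide with agonist antibodies to OX40 and 41BB, 2 costimulatory receptors of the tumour necrosis factor receptor family, and were handled in the same way. The cells of the Ag and Ag+Costim groups therefore share transfer and peptide, which the Naive cells lack. Ages per library are not given in the sources used here.

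Levels are given as CPM, a gene's counts brought to a common library size, with library totals first scaled by TMM (trimmed mean of M values). Total counts ranged from 4865952 in Ag 3 to 25280667 in Naive 3, which limits precision most in Ag 3. Log2 fold changes are given with their standard error (SE) from edgeR's quasi-likelihood test on all 17366 genes kept, and a gene was called at a false discovery rate (FDR) under 0.05, adjusted over all of them. The 5 CD8 T cell markers summed to 4104 to 6489 CPM in Naive, 3398 to 5931 in Ag and 3550 to 4395 in Ag+Costim. Of these markers, 2 were called lower in Ag+Costim than in Naive. Naive 5 stood apart from the other Naive libraries: the summed CPM of 6 proliferation markers (Mki67, Top2a, Ccnb1, Cdk1, Birc5 and Aurkb) was 2078 there and 92.0 to 758 in Naive 1 to 4. In the Ag group that sum was 484 in Ag 1 and 479 in Ag 4, against 2736, 2062 and 2738 in Ag 2, Ag 3 and Ag 5, and it was 2614 to 3124 in Ag+Costim. The share of sequenced reads that was counted was 38.2% to 46.8% in Naive and 51.9% to 52.7% in Ag+Costim. The number of genes detected was 30152 to 33853 in Naive and 23891 to 25410 in Ag+Costim. Neither overlapped between these groups. Ag 2 (52.4%, 21705 genes) and Ag 5 (53.6%, 20949 genes) lay nearer to Ag+Costim than to Naive in both. The part of these differences in the results was not tested. Ag 3 had the lowest share of its reads counted (16.9%), the most genes detected (44408) and the highest erythroid marker sum (966 CPM). Ag 2 and Ag 5 were made from input amounts of 1.4 and 1.8, with no unit given, against 7 to 10 in the other libraries. All Ag libraries and Ag+Costim 1 to 3 ran on lane 2, and all Naive libraries and Ag+Costim 4 and 5 on lane 3. In bulk libraries, fewer cells of a type and less RNA per cell cannot be told apart.

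Ag+Costim against Naive asked how far chaperone expression differed between costimulated and naive cells, which also differ in transfer and host. Of the 67 genes tested, 27 rose, 9 fell and 31 were not called, where 21.0% of all genes tested rose and 23.6% fell. All 7 TRiC subunits and 8 of 10 cytosolic Hsp70, Hsp110 and Hsp90 genes rose, as did 6 of 15 ER genes and 3 of 8 mitochondrial genes. Of the J proteins over all locations, 5 of 39 rose (12.8%) and 9 fell (23.1%), the latter near the share of all genes. Of the 28 genes that are not J proteins, 22 rose and none fell. That split was made after the values had been seen. The median log2 fold change was 0.97 in the genes that are not J proteins, -0.18 in the J proteins, 0.29 over the 67 genes and -0.08 over all genes tested.

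The libraries of the 2 groups did not overlap for 23 genes that were higher in Ag+Costim and 9 that were lower (22.7% and 22.3% of all genes tested). With library totals alone in place of TMM, the median of all genes moved to -0.23 and that of the 67 genes to 0.14, and 22 genes rose and 14 fell. The count of genes that rose was 13 without Naive 1, 15 without Naive 3, 12 without Naive 4 and 17 without Ag+Costim 5, and the count that fell was 5 without Ag+Costim 4. With a term for the sequencing lane, 3 genes rose (Hsph1, Dnajc9 and Hspa5) and 1 fell (Dnajb2), where 258 and 685 of all genes were called. These 4 calls held in each of the 25 alternatives that were run. The other 32 calls were lost with the lane term at an FDR of 0.0511 to 0.217. All 32 kept their direction, and 29 had a log2 fold change at least as large as without the term, among them Hspd1 (1.60), Hsp90b1 (1.47), Tcp1 (1.21) and Hsp90ab1 (1.19). The median of the 67 genes was then 0.38. Within lane 3 alone, with 2 Ag+Costim and 5 Naive libraries, 26 genes rose and 6 fell. All Naive libraries ran on lane 3 and all Ag libraries on lane 2. The fold changes with the lane term therefore rest on these same Ag+Costim and Naive libraries and are not a separate check. One of them, Ag+Costim 4, was the highest of its group for 23 of the 27 genes that rose. The part of that library in the larger fold changes was not tested. Without Ag 3 and Naive 5, 36 rose and 10 fell. Shares of all genes called are not given for library totals alone, lane 3 alone or the fits that left out libraries.

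**Figure D1:**
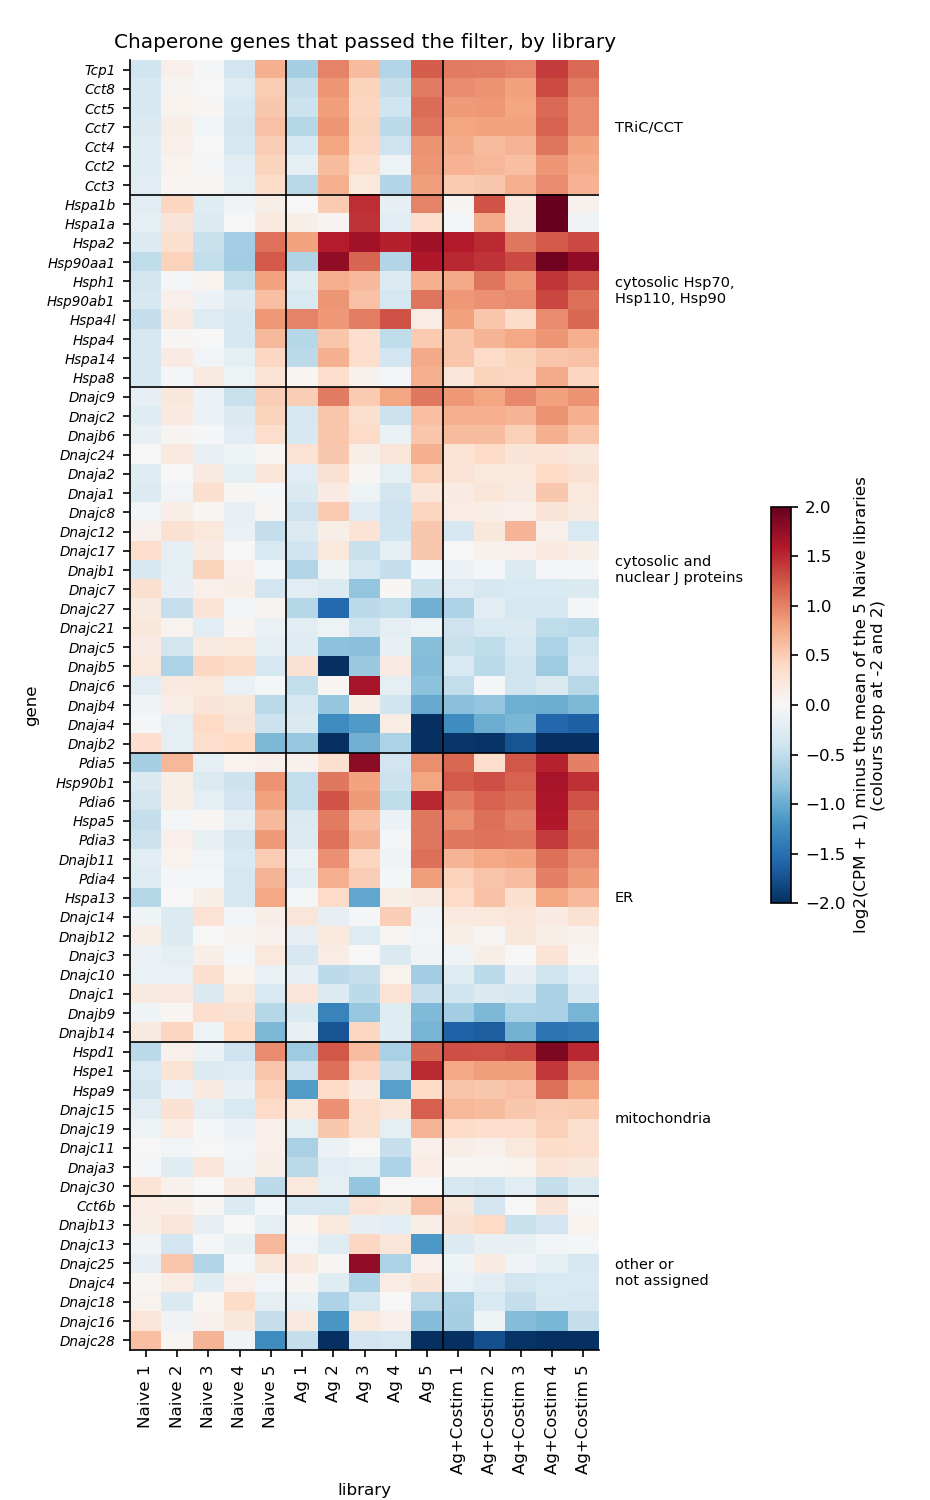
Each row is 1 of the 67 chaperone genes that passed the filter, ordered by location and fold change, and each column is 1 library; colour is log2(CPM + 1) minus the mean of the 5 Naive libraries, with colours ending at -2 and 2. The TRiC, Hsp90aa1, Hsp90ab1, Hspa5, Hsp90b1 and Hspd1 rows are red in all 5 Ag+Costim libraries and in Ag 2 and Ag 5, and pale or blue in Ag 1 and Ag 4.

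The TRiC/CCT chaperonin is a double ring of 8 different subunits. Its 7 protein-coding genes moved by similar amounts, with log2 fold changes of 0.68 to 1.06 in Ag+Costim against Naive, and for each of them the lowest Ag+Costim library lay above the highest Naive library. Tcp1, which codes for the alpha subunit (chr17:12915701-12925067, plus strand), had CPM values of 227, 319.5, 292, 229.5 and 493 (Naive 1 to 5), 188, 596, 463, 199 and 690 (Ag 1 to 5) and 617, 606, 590.1, 787 and 656 (Ag+Costim 1 to 5), with a log2 fold change of 1.06 ± 0.34 (SE) and FDR = 0.0245. Naive 5 was the highest Naive library, and Ag 2 and Ag 5 lay inside or above the Ag+Costim range while Ag 1 and Ag 4 lay below every Naive library. Cct8, the theta subunit (chr16:87483326-87495873, minus strand), was at 326, 419.5, 408, 338 and 579.5 (Naive 1 to 5), 292, 746, 550.5, 290.4 and 831 (Ag 1 to 5) and 785, 756, 716, 998 and 824 (Ag+Costim 1 to 5), a log2 fold change of 0.98 ± 0.28, FDR = 0.0168. The same libraries were high and low, with Ag+Costim 4 the highest of all 15. Cct2, the beta subunit (chr10:117051001-117063814, minus strand), moved less, with 184, 228, 211, 188 and 297 (Naive 1 to 5), 192, 341, 277, 203 and 402 (Ag 1 to 5) and 353, 344, 330.1, 402 and 364 (Ag+Costim 1 to 5) CPM, with a log2 fold change of 0.70 ± 0.20 (SE) and FDR = 0.0163. For Cct2, Ag 1 and Ag 4 sat within the range of Naive 1 to 4.

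Cct5 (log2 fold change 0.89 ± 0.28 (SE), FDR = 0.0226), Cct4 (0.77 ± 0.25, FDR = 0.0265), Cct7 (0.87 ± 0.30, FDR = 0.0305) and Cct3 (0.68 ± 0.25, FDR = 0.0430) completed the set. Cct6a codes for the zeta subunit but its entry is typed as a processed transcript in GENCODE M21, so the rule did not take it. Its mean CPM was 384 ± 91.5 in the Naive group, 432 ± 212 in the Ag group and 709.8 ± 112 in the Ag+Costim group (± SD, n = 5), and rose by the same test (log2 fold change 0.89 ± 0.30 (SE), FDR = 0.0306). The number of TRiC genes called was 2 without Naive 1 or Naive 4, 3 without Naive 3 and 4 without Ag+Costim 5, and none was called with a lane term. Reads were not marked by strand, and Tcp1 overlaps Mrpl18 on the other strand, whose own counts came to 46.0% of those of Tcp1 and which also rose (log2 fold change 1.15, FDR = 0.0207).

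Subunits of 1 complex can also be compared with each other once counts are divided by transcript length. On the scale of CPM per kilobase of transcript, Cct5, the epsilon subunit, was the highest of the 8 TRiC genes in 15 of 15 libraries, and Cct4, the delta subunit, was the lowest in 14 of them, with Cct2 lowest in the other. Cct5 stood at 237 ± 60.7 (Naive), 313 ± 144 (Ag) and 434 ± 42.7 (Ag+Costim), and Cct4 at 103 ± 22.6, 131 ± 52.9 and 170 ± 20.4 (mean ± SD, n = 5). The ratio of the highest to the lowest TRiC gene ran from 2.16 to 2.41 (Naive), 2.18 to 2.73 (Ag) and 2.47 to 2.75 (Ag+Costim). The highest and the lowest ring gene were thus the same in nearly every library, although the sum of the 7 members went from 1620 in Ag 1 to 5024 in Ag+Costim 4 (summed CPM).

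**Figure D2:**
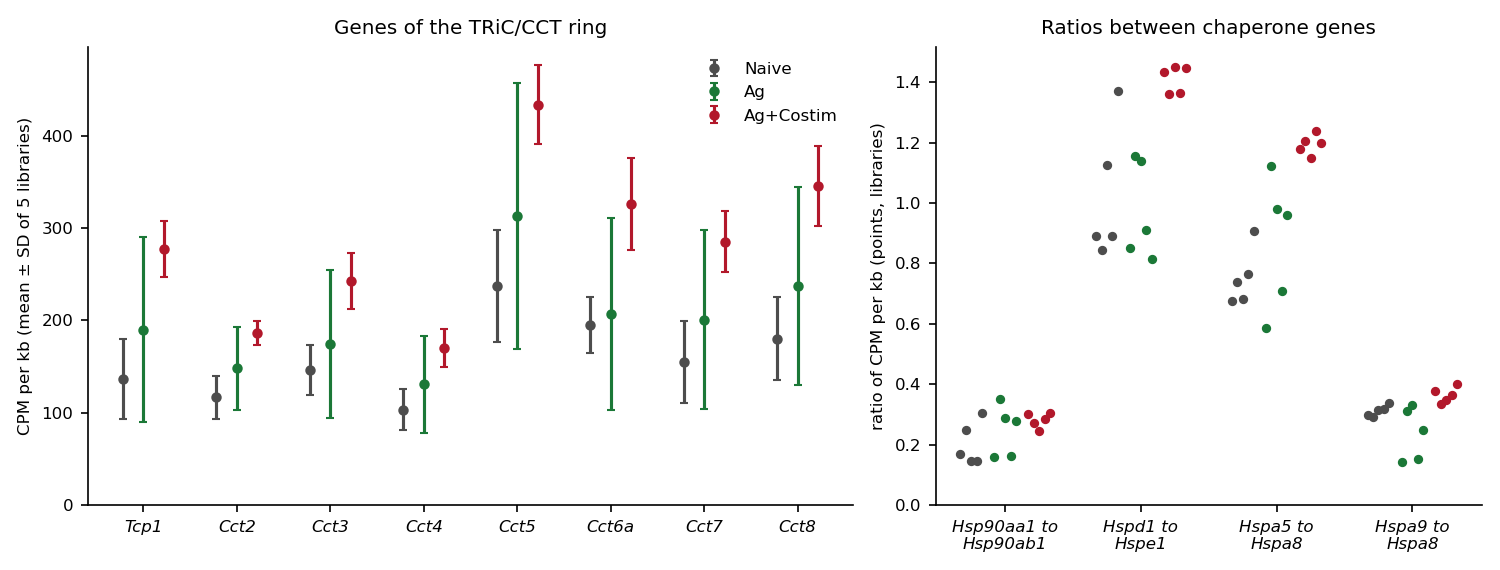
Left, CPM per kilobase of transcript for the 8 genes of the TRiC ring (mean ± SD of 5 libraries per group); right, ratios of CPM per kilobase between pairs of chaperone genes, 1 point per library. Cct5 is the highest ring gene in every group, and the Hspd1 to Hspe1 and Hspa5 to Hspa8 ratios of the 5 Ag+Costim libraries sit close together, above all other libraries except Naive 5 in the first ratio.

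In the cytosol, Hsp90 and its Hsp70 partners rose together. Hsp90ab1, the constitutive Hsp90 (chr17:45567775-45573271, minus strand), had the highest CPM per kilobase of all 78 genes in 15 of 15 libraries. Its CPM was 806, 1082, 926, 829.6 and 1526 (Naive 1 to 5), 809, 1854, 1500, 789 and 2113 (Ag 1 to 5) and 1830, 1892, 1936, 2550 and 2166 (Ag+Costim 1 to 5), and it was called with a log2 fold change of 1.00 ± 0.27, FDR = 0.0140. The Ag+Costim libraries all lay above the highest Naive library, Naive 5, and among the Ag libraries only Ag 2 and Ag 5 reached their range. Hsp90aa1, the inducible Hsp90 (chr12:110690605-110702728, minus strand), had the larger fold change of the pair: 173, 337, 173, 152 and 577 (Naive 1 to 5), 162, 836, 548, 163 and 744 (Ag 1 to 5) and 700.1, 667, 615, 936 and 837 (Ag+Costim 1 to 5), with a log2 fold change of 1.41 ± 0.48 (SE) and FDR = 0.0314. Naive 5 came closest to Ag+Costim here too. Per kilobase, the ratio of Hsp90aa1 to Hsp90ab1 was 0.145 to 0.305 (Naive), 0.158 to 0.349 (Ag) and 0.246 to 0.303 (Ag+Costim), so the ranges overlapped.

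Hspa8, the constitutive Hsp70 of the cytosol (chr9:40800984-40810087, plus strand), moved less than any other gene called in this location. Its CPM was 526, 636, 742, 611 and 793 (Naive 1 to 5), 671, 834, 693, 634 and 1069 (Ag 1 to 5) and 774, 889.7, 886, 1091 and 879.6 (Ag+Costim 1 to 5), a log2 fold change of 0.45 ± 0.16, FDR = 0.0361, and Naive 5 lay above Ag+Costim 1. The Hsp110 exchange factor Hsph1 (chr5:149614287-149636376, minus strand) was at 77.5, 98.9, 105, 70.9 and 176 (Naive 1 to 5), 84.7, 166, 158, 82.3 and 165 (Ag 1 to 5) and 169, 210.3, 185, 271 and 244 (Ag+Costim 1 to 5) CPM, with a log2 fold change of 1.03 ± 0.27, FDR = 0.0129. All 5 Ag+Costim libraries were above all 5 Ag libraries, and only Naive 5 overlapped them. Hspa4, another Hsp110 (chr11:53259814-53300457, minus strand), was at 139.5, 178, 175, 141 and 276 (Naive 1 to 5), 118, 259, 223, 124 and 255 (Ag 1 to 5) and 260.4, 283, 301, 327 and 292 (Ag+Costim 1 to 5), with a log2 fold change of 0.69 ± 0.24 (SE) and FDR = 0.0348. It too was higher in every Ag+Costim library than in every Ag library, and Naive 5 alone overlapped. The Hspa4 call was lost in 8 of the 10 fits that left out 1 Naive or Ag+Costim library, with FDR from 0.0506 to 0.0874.

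Hspa4l, the third Hsp110, was at 13.7, 22.4, 16.1, 15.3 and 36.2 (Naive 1 to 5), 39.9, 36.4, 40.5, 48.5 and 21.6 (Ag 1 to 5) and 35.2, 29.1, 25.2, 38.4 and 44.3 (Ag+Costim 1 to 5) CPM, with a log2 fold change of 0.73 ± 0.27 (SE) and FDR = 0.0431, with the groups overlapping and the call lost when any 1 of Naive 1 to 4 or of Ag+Costim 1, 2, 4 and 5 was left out. Hspa2, an Hsp70 best known from testis, was low throughout, at 1.34, 2.52, 1.08, 0.764 and 5.05 (Naive 1 to 5), 3.96, 7.44, 8.06, 7.30 and 8.14 (Ag 1 to 5) and 7.49, 6.99, 4.92, 5.64 and 6.05 (Ag+Costim 1 to 5), with a log2 fold change of 1.53 ± 0.42 (SE) and FDR = 0.0142. Naive 5 again overlapped the Ag+Costim libraries. Hspa14, the Hsp70 that works with Dnajc2 at the ribosome, was not called (log2 fold change 0.48 ± 0.23, FDR = 0.0976). In place of 8 cytosolic genes, 3 were called without Naive 1 or Naive 4, 4 without Naive 3, Ag+Costim 2 or Ag+Costim 5, 5 without Naive 2, Ag+Costim 1 or Ag+Costim 4, and 1 with a lane term.

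The stress-inducible Hsp70 genes Hspa1a and Hspa1b lie 9951 bases apart on chromosome 17, are near-identical copies, and their separate counts are uncertain because reads can map to either. Together they came to 0.961, 2.37, 0.858, 1.32 and 1.80 CPM (Naive 1 to 5), 1.55, 2.27, 7.40, 1.00 and 3.69 (Ag 1 to 5) and 1.46, 5.04, 1.90, 16.3 and 1.46 (Ag+Costim 1 to 5), at most 1.49% of Hspa8 in any library. Ag+Costim 4 stood far above the rest. Hspa1b was called higher in Ag+Costim than Naive (log2 fold change 1.87 ± 0.71 (SE), FDR = 0.0442) and Hspa1a was not (1.80 ± 0.78, FDR = 0.0709). Without Ag+Costim 4 the Hspa1b call was lost, and it was also lost with voom weights. 

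Promoters of these genes were searched for the heat shock element, the site bound by heat shock factor 1, in windows from 250 bases before to 50 bases after each RefSeq start (GRCm38.p6). Its core was searched as GAANNTTC or TTCNNGAA, which read the same on both strands and may overlap. It was present in 17 of 82 promoters (20.7%) of the 64 chaperone genes that had an entry, against 15.1% of all 32851 promoters. The genes with a match included Hsph1, Hspa1a and Hspa1b in the cytosol and Cct2 and Cct5 of the ring. The windows below show what sits upstream of the genes described above, with the matched bases in capitals; the Hspa1a and Hspa1b windows are identical letter for letter.
Hsph1, chr5:149636351-149636380, minus strand: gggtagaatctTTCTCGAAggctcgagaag
Hspa1a, chr17:34972242-34972271, minus strand: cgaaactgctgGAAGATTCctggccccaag
Hspa1b, chr17:34959324-34959353, minus strand: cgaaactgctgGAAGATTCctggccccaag
Cct2, chr10:117063399-117063428, minus strand: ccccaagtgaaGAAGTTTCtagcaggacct
Cct5, chr15:31601862-31601891, minus strand: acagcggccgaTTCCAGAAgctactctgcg
A match is a description of the letters only. The 14 genes without an entry were Cct4, Dnajc2, Hsp90ab1, Dnajc30, Dnajc22, Dnajc11, Dnajc18, Hspa8, Dnajc12, Dnajc5b, Hsp90aa1, Hspa13, Dnajc5 and Hspa9.

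Of 19 J proteins of the cytosol and nucleus tested in Ag+Costim against Naive, 3 rose (15.8%), 5 fell (26.3%) and 11 were not called. Of all genes, 21.0% rose and 23.6% fell. Those that rose were Dnajc9, Dnajc2 and Dnajb6. Dnajc9, which binds histones H3 and H4 (chr14:20384638-20388910, minus strand), was at 187, 244, 192, 153 and 295 (Naive 1 to 5), 293, 429, 299, 363 and 434 (Ag 1 to 5) and 380, 361, 408, 370.5 and 388 (Ag+Costim 1 to 5), with a log2 fold change of 0.83 ± 0.17 (SE) and FDR = 0.00489. Every Ag+Costim library was above every Naive library, and Ag overlapped Naive by only Naive 5 and Ag 1. Dnajc2, which guides nascent chains at the ribosome (chr5:21757267-21785251, minus strand), was at 84.3, 114, 92.02, 81.8 and 136 (Naive 1 to 5), 78.7, 147, 125, 74.2 and 152 (Ag 1 to 5) and 163, 165, 161, 187 and 163 (Ag+Costim 1 to 5), with a log2 fold change of 0.72 ± 0.21 (SE) and FDR = 0.0167. All 5 Ag+Costim libraries were above all 10 others. Dnajb6, which keeps proteins from aggregating, was at 84.8, 98.2, 92.5, 81.1 and 120.5 (Naive 1 to 5), 75.2, 139, 124, 85.8 and 139.7 (Ag 1 to 5) and 147, 146, 132, 156 and 139 (Ag+Costim 1 to 5), with a log2 fold change of 0.59 ± 0.17 (SE) and FDR = 0.0171, with Ag 2 and Ag 5 inside the Ag+Costim range.

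The count that fell was 3 without Naive 1 or Ag 2 and 2 without Ag+Costim 4. Those that fell were Dnajb2, Dnaja4, Dnajb4, Dnajc5 and Dnajc21. Dnajb2, a ubiquitin-binding J protein best studied in neurons (chr1:75236406-75245692, plus strand), showed the largest drop in this location, at 16.4, 11.1, 16.5, 17.02 and 6.38 (Naive 1 to 5), 7.15, 1.52, 6.10, 7.88 and 2.13 (Ag 1 to 5) and 2.58, 2.52, 3.16, 2.34 and 2.36 (Ag+Costim 1 to 5), with a log2 fold change of -2.38 ± 0.42 (SE) and FDR = 0.00298. The Ag+Costim libraries lay below every Naive library, and Naive 5 was the lowest Naive library. Dnajb4 (chr3:152178511-152210302, minus strand), a partner of cytosolic Hsp70, was at 17.9, 20.7, 22.8, 22.1 and 12.6 (Naive 1 to 5), 14.6, 10.6, 20.5, 14.03 and 8.89 (Ag 1 to 5) and 10.1, 10.5, 9.07, 8.95 and 9.66 (Ag+Costim 1 to 5), with a log2 fold change of -0.99 ± 0.21 (SE) and FDR = 0.00591, again without overlap between Ag+Costim and Naive. Its promoter holds a match to the heat shock element core searched above, which 15.1% of all promoters hold, as do those of some genes that rose. The match is shown in capitals and describes the letters only.
Dnajb4, chr3:152193841-152193870, minus strand: ttcgttcgctgTTCTAGAAagtacagagac
Dnaja4 was at 22.5, 20.2, 31.03, 28.1 and 17.1 (Naive 1 to 5), 18.9, 9.10, 10.02, 25.99 and 3.57 (Ag 1 to 5) and 9.28, 11.2, 11.9, 7.14 and 6.81 (Ag+Costim 1 to 5), with a log2 fold change of -1.36 ± 0.40 (SE) and FDR = 0.0178, but it overlaps Wdr61 on the other strand, whose mean was 96.9 CPM against 15.5 for Dnaja4, and reads of the pair cannot be told apart without strand.

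Dnajc21, a factor of ribosome assembly, fell by less (-0.46 ± 0.13, FDR = 0.0165), as did Dnajc5, the cysteine string protein of vesicles (-0.49 ± 0.17, FDR = 0.0312), whose groups overlapped at Naive 2. The Dnajc5 call was lost in 8 of the 10 fits that left out 1 Naive or Ag+Costim library. The main J partners of Hspa8 were not called: Dnaja1 had 190.2, 221, 286, 234 and 224 (Naive 1 to 5), 187, 256, 214, 177 and 269.9 (Ag 1 to 5) and 256, 270.2, 259, 334 and 266 (Ag+Costim 1 to 5), with a log2 fold change of 0.26 ± 0.14 (SE) and FDR = 0.142 and Dnajb1 had 97.8, 108, 167, 132 and 119.8 (Naive 1 to 5), 81.9, 117, 95.8, 87.8 and 119.9 (Ag 1 to 5) and 112, 119, 102, 121 and 121 (Ag+Costim 1 to 5), with a log2 fold change of -0.12 ± 0.15 (SE) and FDR = 0.513. Dnajb1 values overlapped fully across the 3 groups. Per kilobase, the ratio of Dnajb1 to Hspa8 was 0.116 to 0.183 (Naive), 0.0895 to 0.110 (Ag) and 0.0800 to 0.112 (Ag+Costim), so every Ag and Ag+Costim library lay below every Naive library.

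In the ER, 6 luminal folding genes rose (Hspa5, Hsp90b1, Pdia3, Pdia4, Pdia6 and Dnajb11), and the J proteins Dnajb9 and Dnajb14 fell. Hspa5, which codes for BiP, the ER Hsp70 (chr2:34771970-34777547, plus strand), was at 402, 552, 574, 496 and 879.7 (Naive 1 to 5), 460.4, 1157, 849, 515 and 1168 (Ag 1 to 5) and 1074, 1204, 1131, 1700 and 1223 (Ag+Costim 1 to 5), with a log2 fold change of 1.13 ± 0.28 (SE) and FDR = 0.00999. No Ag+Costim library overlapped Naive, and Ag 2 and Ag 5 lay within the Ag+Costim range. Hsp90b1, which codes for Grp94, the ER Hsp90 (chr10:86690209-86705509, minus strand), was at 445, 591, 450.2, 405 and 1019 (Naive 1 to 5), 387, 1137, 952, 404 and 948 (Ag 1 to 5) and 1278, 1333, 1240, 1719 and 1505 (Ag+Costim 1 to 5), with a log2 fold change of 1.28 ± 0.32 (SE) and FDR = 0.0111. Here all 5 Ag+Costim libraries were above all 10 others. The protein disulfide isomerases Pdia3, which also helps load peptide onto MHC class I, and Pdia6 followed. Pdia3 (chr2:121413775-121438687, plus strand) was at 451, 654, 553, 476 and 1099 (Naive 1 to 5), 508, 1305, 983, 592 and 1266 (Ag 1 to 5) and 1272, 1294, 1283, 1615 and 1362 (Ag+Costim 1 to 5), with a log2 fold change of 1.08 ± 0.29 (SE) and FDR = 0.0133, and Pdia6 (chr12:17266545-17284770, plus strand) had a log2 fold change of 1.19 ± 0.37, FDR = 0.0227 with group means of 219.7 ± 85.9, 353 ± 203 and 502 ± 84.9 CPM (mean ± SD, n = 5). Both were without overlap between Ag+Costim and Naive.

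Pdia4 (log2 fold change 0.67 ± 0.23 (SE), FDR = 0.0320) and Dnajb11, the main J partner of BiP for clients (0.84 ± 0.23, FDR = 0.0154), also rose. Pdia4 overlapped Naive only at Naive 5. Dnajb9, a J protein that BiP uses in ER-associated degradation, went the other way, with 14.8, 16.2, 20.1, 19.7 and 10.3 (Naive 1 to 5), 12.8, 5.65, 8.93, 13.2 and 8.08 (Ag 1 to 5) and 9.34, 8.05, 9.84, 9.73 and 7.85 (Ag+Costim 1 to 5), with a log2 fold change of -0.86 ± 0.23 (SE) and FDR = 0.0141. Its Ag+Costim libraries were all below the lowest Naive library, Naive 5. Dnajb14, a J protein of the ER membrane, was at 6.85, 8.36, 5.45, 8.13 and 2.73 (Naive 1 to 5), 5.25, 1.10, 8.28, 4.87 and 2.63 (Ag 1 to 5) and 1.26, 1.22, 2.60, 1.49 and 1.60 (Ag+Costim 1 to 5), with a log2 fold change of -1.94 ± 0.46 (SE) and FDR = 0.00846. Dnajc3, which binds misfolded ER clients, was not called at 174, 167, 206, 188 and 219 (Naive 1 to 5), 151, 210, 191, 156 and 182 (Ag 1 to 5) and 181, 206, 189.8, 231 and 195 (Ag+Costim 1 to 5), with a log2 fold change of 0.07 ± 0.12 (SE) and FDR = 0.627, nor was Dnajc10, the ER reductase (-0.32 ± 0.15, FDR = 0.0878). Without Naive 1, Naive 3 or Naive 4, 4 ER genes were called higher in place of 6.

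The ER genes were searched for the ER stress element, the site known from unfolded protein response promoters, which joins CCAAT and CCACG through a spacer of 9 bases. Over both strands it was present in 0.119% of all promoters and in 4 of the 82 chaperone promoters, those of Hspa5, Hsp90b1, Pdia6 and Dnajc3, which are all ER genes. The windows below are shown because these 4 genes share the element but not the change: the first 3 rose and Dnajc3 was not called. Capitals mark the element with its spacer; Hsp90b1 has a pair of matches, of which the nearer reads in reverse.
Hspa5, chr2:34772020-34772048, plus strand: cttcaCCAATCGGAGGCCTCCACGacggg
Hsp90b1, chr10:86705528-86705556, minus strand: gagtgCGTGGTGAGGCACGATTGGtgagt
Hsp90b1, chr10:86705633-86705661, minus strand: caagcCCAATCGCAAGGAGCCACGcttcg
Pdia6, chr12:17266486-17266514, plus strand: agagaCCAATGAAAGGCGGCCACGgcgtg
Dnajc3, chr14:118937822-118937850, plus strand: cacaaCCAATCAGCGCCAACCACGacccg
The short motif TGACGTG was found in 3 chaperone promoters (Hspa5, Hspa1l and Dnajc25; 2.01% of all promoters) and the E-box CACGTG in 8 promoters of 7 genes (7.15% of all promoters), among them Dnajb9 and Hspd1.

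Plasma cells are rich in ER chaperones, so their markers are given beside these values. The summed CPM of 6 plasma cell markers was 1.87 to 13.7 (Naive), 16.0 to 297 (Ag) and 57.1 to 131 (Ag+Costim), and 3 of the 4 markers tested were called higher in Ag+Costim than in Naive. Mzb1 and Igha were at 0 in all Naive libraries, and Mzb1 had a mean of 0.633 CPM in Ag+Costim. Within Ag, the 2 libraries with the highest plasma cell sums, Ag 3 (297) and Ag 4 (211), had ER chaperone sums of 4137 and 2574 CPM, and Ag 2 and Ag 5, with plasma cell sums of 16.0 and 29.7, had 5229 and 5138. The part of other cell types in the Ag+Costim against Naive result was not tested.

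In mitochondria, both genes of the Hsp60 and Hsp10 chaperonin rose, and so did Dnajc15. Hspd1, which codes for Hsp60 (chr1:55077835-55088243, minus strand), was at 123, 189, 163, 132 and 342 (Naive 1 to 5), 107, 420, 271, 112 and 398 (Ag 1 to 5) and 432, 429.9, 444, 647 and 502 (Ag+Costim 1 to 5), with a log2 fold change of 1.37 ± 0.39 (SE) and FDR = 0.0166. All 5 Ag+Costim libraries were above all 10 others. Hspe1, which codes for Hsp10 (chr1:55088132-55091307, plus strand), was at 50.4, 76.02, 51.5, 52.03 and 91.9 (Naive 1 to 5), 46.5, 135, 84.3, 44.4 and 177 (Ag 1 to 5) and 108, 113, 113, 168 and 124 (Ag+Costim 1 to 5), with a log2 fold change of 0.96 ± 0.34 (SE) and FDR = 0.0374. Ag 2 and Ag 5 lay above most Ag+Costim libraries, and the call was lost when any 1 Naive library from 1 to 4 or any 1 Ag+Costim library was left out. The genes stand head to head on chromosome 1 and their annotated bounds overlap by 112 bases, so they share 1 promoter stretch. The heat shock element core has 3 overlapping matches in it, of which the middle one is shown in capitals, read toward Hspe1.
Hspe1, chr1:55088053-55088082, plus strand: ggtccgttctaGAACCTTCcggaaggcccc
Per kilobase, the ratio of Hspd1 to Hspe1 was 0.844 to 1.37 (Naive), 0.816 to 1.15 (Ag) and 1.36 to 1.45 (Ag+Costim), so the 2 genes of the shared promoter did not keep 1 ratio across groups. This ratio was described only, with no test, and the small overlap on opposite strands cannot be resolved without strand.

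Hspa9, the mitochondrial Hsp70 that pulls proteins in, was at 200.4, 239, 292, 232 and 354 (Naive 1 to 5), 118, 338, 296, 122 and 339.7 (Ag 1 to 5) and 383, 377, 389.5, 557 and 448 (Ag+Costim 1 to 5), with a log2 fold change of 0.71 ± 0.29 (SE) and FDR = 0.0604. It was not called in spite of Ag+Costim libraries that all lay above the other 10. Dnajc15, a J protein known to restrain respiration in CD8+ T cells, was called with 293, 419, 298, 275 and 442 (Naive 1 to 5), 392, 635, 432, 399 and 774 (Ag 1 to 5) and 536, 526, 494, 475 and 485 (Ag+Costim 1 to 5), with a log2 fold change of 0.54 ± 0.20 (SE) and FDR = 0.0407, with Ag 2 and Ag 5 the highest of all 15. The call was lost without Naive 1, 3 or 4 and without Ag+Costim 1, 2, 3 or 5, and in each of these fits 1 mitochondrial gene (Hspd1) was called. Dnajc19, part of the import motor, had a log2 fold change of 0.38 ± 0.16, FDR = 0.0593, and Dnaja3, the J partner of Hspa9, 0.12 ± 0.14, FDR = 0.497. Neither was called, and Dnajc19 and Dnaja3 overlap Fxr1 and Coro7 on the other strand.

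No gene without an assigned location rose, and 2 of 8 tested fell, a share near the 23.6% of all genes. Dnajc28, a little studied J protein (chr16:91614254-91619026, minus strand), had the lowest fold change of all 67 genes, at 7.43, 4.73, 7.87, 4.31 and 1.33 (Naive 1 to 5), 3.01, 0, 3.27, 3.37 and 0 (Ag 1 to 5) and 0.199, 0.650, 0.422, 0.195 and 0.208 (Ag+Costim 1 to 5), with a log2 fold change of -3.93 ± 1.06 (SE) and FDR = 0.0138. It was at 0 in Ag 2 and Ag 5, and Naive 5 was the lowest Naive library. Its counts in Ag+Costim are few, and an antisense gene, Gm15964, overlaps it. The other was Dnajc18 (-0.46 ± 0.16, FDR = 0.0354), whose call was lost when any 1 of Naive 1, 3 and 4, Ag 2 or the Ag+Costim libraries was left out. Dnajc16 (-0.68 ± 0.32, FDR = 0.0871) and Dnajc25 (-0.18 ± 0.44, FDR = 0.748) were not called.

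**Figure D3:**
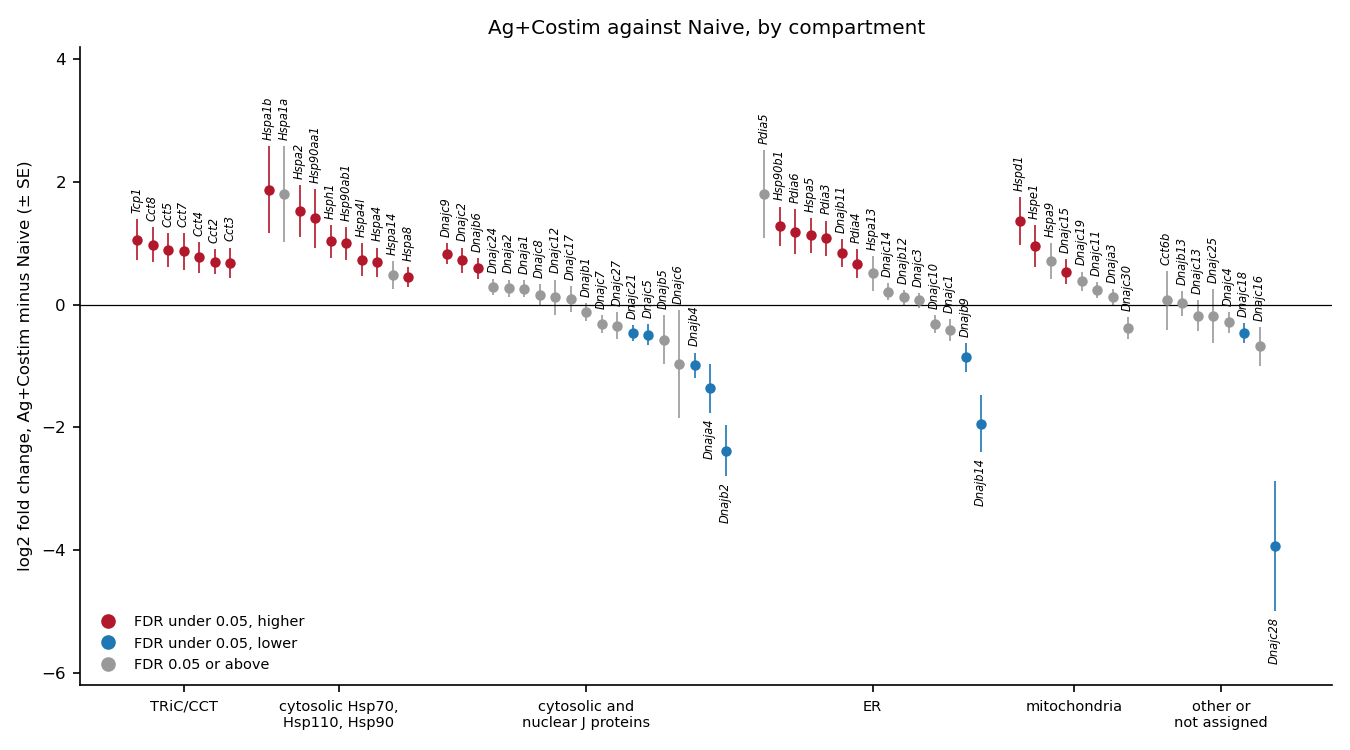
Log2 fold change, Ag+Costim minus Naive, with its SE, for the 67 genes tested, by location; red and blue mark genes called higher and lower at an FDR under 0.05. All TRiC genes lie between 0.68 and 1.06, while the J proteins of the cytosol run from -2.38 to 0.83.

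Ag against Naive asked how cells given antigen without costimulation differed from naive cells. Transfer, host and sequencing lane differ between these groups along with antigen, and their parts cannot be told apart. Only 4 of the 67 genes were called: Hspa2 and Dnajc9 rose (3.05% of all genes tested rose), and Dnajb2 and Dnajc27 fell (3.66% fell). Dnajc9 had a log2 fold change of 0.76 ± 0.17, FDR = 0.0197, close to its value in Ag+Costim against Naive, and Hspa2 of 1.70 ± 0.42, FDR = 0.0307. Dnajb2 fell by a log2 fold change of -1.46 ± 0.41, FDR = 0.0469, and Dnajc27, a J protein with a Rab-like domain (chr12:4082583-4110606, plus strand), was at 16.97, 10.5, 18.2, 14.3 and 15.5 (Naive 1 to 5), 9.64, 4.41, 10.02, 10.2 and 7.14 (Ag 1 to 5) and 9.34, 12.8, 11.5, 11.6 and 14.5 (Ag+Costim 1 to 5) CPM (Ag against Naive log2 fold change -0.87 ± 0.22 (SE), FDR = 0.0352). Dnajc27 was the only gene whose Ag and Naive libraries did not overlap (2.09% of all genes tested were lower without overlap, and 1.76% higher).

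No TRiC, ER or mitochondrial gene was called, and the Hsp90 pair had log2 fold changes of 0.80 ± 0.48, FDR = 0.268 for Hsp90aa1 and 0.45 ± 0.27, FDR = 0.269 for Hsp90ab1. Hspa4l (0.85 ± 0.28, FDR = 0.0730), Dnaja4 (-0.81 ± 0.39, FDR = 0.183) and Dnajc28 (-1.45 ± 0.94, FDR = 0.300) were not called. The median of the 67 genes was 0.18 and that of all genes tested 0.08. The 4 calls were not stable: no lane holds both groups, so lane and antigen cannot be told apart, and none was called with a lane term or with the 10 libraries of the comparison alone. None of these was called without Naive 1, without Naive 3, without Naive 4 or without Ag 2, where the FDR of Dnajc9 was 0.0620 to 0.0696, that of Hspa2 0.0563 to 0.0933, that of Dnajc27 0.0690 to 0.0964 and that of Dnajb2 0.0834 to 0.125. Without Ag 5, Dnajc9 alone was called. Dnajb2 was not called without Naive 2 (FDR = 0.0587), Ag 3 (FDR = 0.0551) or any 1 Ag+Costim library (FDR up to 0.0727), and Dnajc27 was not called without Ag+Costim 2, 3 or 4 (FDR up to 0.0604). Without Naive 5, 6 genes rose and 5 fell, and without Ag 4, 4 rose and 5 fell.

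Ag+Costim against Ag asked what costimulation added to antigen. No chaperone gene passed the FDR (0.0288% of all genes tested rose and 0.00576% fell). At an unadjusted p under 0.05, 11 of the 67 were higher and 4 lower, against 7.28% and 19.5% of all genes tested. The median log2 fold change was 0.18, against -0.10 over all genes tested. The 6 genes whose Ag+Costim libraries all lay above all Ag libraries were Hspa4, Hsph1, Dnajc2, Hsp90b1, Hspa9 and Hspd1 (4.23% of all genes tested), and none was lower without overlap (2.10%).

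The largest differences were in Hspd1 (log2 fold change 0.91 ± 0.39, FDR = 0.154), Hsp90b1 (0.89 ± 0.32, FDR = 0.110), Hspa9 (0.83 ± 0.29, FDR = 0.106) and Hsph1 (0.72 ± 0.27, FDR = 0.118). Among genes whose higher group averaged 5 CPM or more, the lowest were Dnajc25 (-0.74 ± 0.44, FDR = 0.294), Dnaja4 (-0.55 ± 0.39, FDR = 0.380), Dnajb4 (-0.50 ± 0.21, FDR = 0.156) and Dnajc16 (-0.42 ± 0.32, FDR = 0.404). The count depended on the tool. DESeq2 called 6 genes higher (Hsph1, Dnajc2, Hsp90b1, Dnaja3, Dnajc11 and Hspa9) and Dnajb14 lower, where it called 3.83% and 10.8% of all genes tested, and voom with sample quality weights called 36 higher and 10 lower, where it called 31.3% and 33.2%. Those weights were 0.0793 for Ag 5, 0.122 for Ag 2, 0.196 for Naive 5 and 0.362 for Ag 3, against 0.624 to 4.08 in the others. Without Ag 2, edgeR called 9 genes higher and 2 lower, and without Ag 5, 4 higher and 3 lower. The shares of all genes called in these fits are not given here.

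The Ag libraries spread across the ranges of both other groups. For the 27 genes that rose in Ag+Costim against Naive, Ag 2 lay within or above the Ag+Costim range for 22 and Ag 5 for 20, but Ag 3 for 4, Ag 4 for 3 and Ag 1 for 1. Ag 1 lay within or below the Naive range for 26, Ag 4 for 24 and Ag 3 for 21, against 2 for Ag 2 and 4 for Ag 5. Naive 5 was within or above the Ag+Costim range for 7, and without it Ag 3 would lie within or below the range of Naive 1 to 4 for only 1 gene. Ag+Costim 4 was the highest library of its group for 23 of the 27. The proliferation marker sums were also low in Ag 1 and Ag 4 (484 and 479 CPM) and high in Ag 2 and Ag 5 (2736 and 2738). Ag 3 lay between these in the proliferation sum, at 2062 CPM, below the Ag+Costim range of 2614 to 3124. It had 4 of the 27 genes within or above the Ag+Costim range. Ag 2 and Ag 5 are also the libraries of lowest input. The part of either in the chaperone values was not tested.

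Summed over a location, chaperone transcripts took up more of the Ag+Costim libraries. The summed CPM of the 78 genes was 10569 ± 2454 (Naive), 13254 ± 4651 (Ag) and 18232 ± 2066 (Ag+Costim) (mean ± SD, n = 5). The ER sum had the largest ratio of Ag+Costim to Naive (1.94), from 2942 ± 891 to 5704 ± 763. The cytosolic Hsp70, Hsp110 and Hsp90 sum (1.85), the TRiC sum (1.83) and the mitochondrial sum (1.67) followed. The Ag+Costim libraries lay above all Naive libraries in each of these 4 sums. The sum of the cytosolic and nuclear J proteins went from 1721 ± 104 to 1974 ± 58.7, a ratio of 1.15 that dropped to 1.03 with overlapping groups under library totals alone. That of the unassigned genes went from 114 ± 12.3 to 90.8 ± 5.15.

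**Figure D4:**
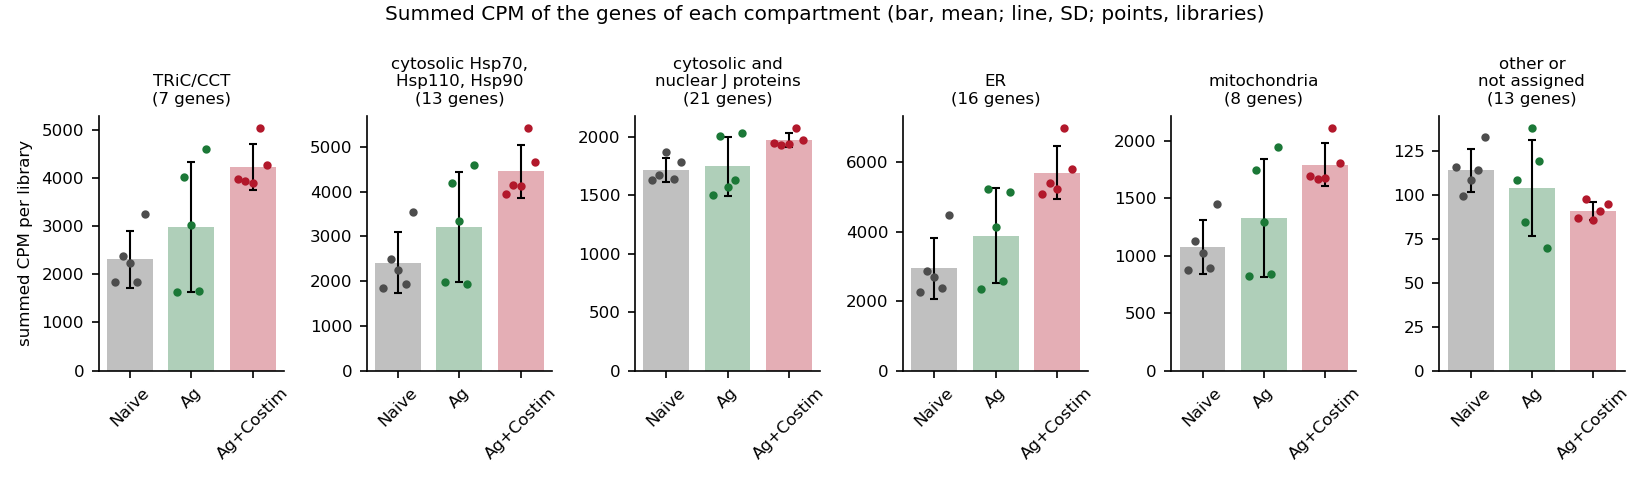
Summed CPM of the genes of each location per library (points), with the group mean as a bar from 0 and the SD as a line. The ER, TRiC, cytosolic Hsp and mitochondrial sums of all 5 Ag+Costim libraries lie above all 5 Naive libraries, the Ag libraries run across both ranges, and the J protein sum changes little.

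Ratios between locations shifted as well, given per kilobase and without a test. Hspa5 to Hspa8, the ER against the cytosolic Hsp70, was 0.675 to 0.907 (Naive), 0.586 to 1.12 (Ag) and 1.15 to 1.24 (Ag+Costim), with no overlap of Ag+Costim with the other groups. The mitochondrial Hspa9 to Hspa8 ratio was 0.291 to 0.339, 0.143 to 0.333 and 0.334 to 0.401, where Naive and Ag+Costim met at Naive 5 and Ag+Costim 2. Dnajb11 to Hspa5 was 0.337 to 0.451 (Naive), 0.369 to 0.440 (Ag) and 0.274 to 0.348 (Ag+Costim). On this scale, BiP transcripts therefore stood higher relative to Dnajb11 in Ag+Costim than in any Ag library.

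Chaperones work with partners that the naming rule does not take, and 62 of these were listed by role. Of 59 tested in Ag+Costim against Naive, 29 rose and 4 fell, with a median log2 fold change of 0.54. Over all genes tested, 21.0% rose, 23.6% fell and the median was -0.08. ER folding enzymes and lectins gave 11 of 14 that rose, co-chaperones of Hsp70 and Hsp90 gave 7 of 12, prefoldin, which hands actin and tubulin to TRiC, 3 of 6 (Pfdn1, Vbp1 and Pfdn4), and mitochondrial Hsp90 and proteases 3 of 5 (Trap1, Lonp1 and Htra2). Of 11 Hsp70 nucleotide exchange factors, Bag2, Bag3 and Grpel1 rose and Bag5 fell. The count of partners called was 11 without Naive 1 or Naive 4 and 16 without Naive 3, and 1 (Ppp5c, an Hsp90-bound phosphatase) with a lane term.

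Sdf2l1, a BiP cofactor, had the largest rise among them: its CPM was 32.5, 74.1, 29.8, 31.2 and 134 (Naive 1 to 5), 34.7, 199.7, 135, 34.9 and 238 (Ag 1 to 5) and 169.5, 194, 175, 244 and 203 (Ag+Costim 1 to 5), with a log2 fold change of 1.71 ± 0.56 (SE) and FDR = 0.0263. As with the ER chaperones, Ag 2 and Ag 5 were high and Ag 1 and Ag 4 low. Bag2 (1.39 ± 0.45, FDR = 0.0252), the ER stress proteins Creld2 (1.20 ± 0.36, FDR = 0.0189) and Manf (1.02 ± 0.32, FDR = 0.0220), and Stip1, which bridges Hsp70 and Hsp90 (1.06 ± 0.34, FDR = 0.0241), were next. Calr, the ER lectin calreticulin (0.94 ± 0.25, FDR = 0.0134), P4hb, the founding protein disulfide isomerase (0.84 ± 0.24, FDR = 0.0162), and Erp44 (0.43 ± 0.13, FDR = 0.0222) rose too.

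Of 9 transcription factors and sensors of the stress responses, Xbp1 and Atf6 rose and Hsf1 and Ddit3 fell. That is 22.2% in each direction, near the 21.0% and 23.6% of all genes. Xbp1, the factor of the unfolded protein response, was at 59.3, 77.4, 75.3, 65.2 and 97.6 (Naive 1 to 5), 74.8, 125, 91.9, 79.1 and 140.3 (Ag 1 to 5) and 119, 123, 111, 141 and 125 (Ag+Costim 1 to 5), with a log2 fold change of 0.72 ± 0.18 (SE) and FDR = 0.0105, with no Ag+Costim library overlapping Naive. Hsf1, the heat shock factor, was at 127, 84.3, 105, 123 and 57.4 (Naive 1 to 5), 66.1, 54.5, 47.7, 63.5 and 56.6 (Ag 1 to 5) and 61.6, 58.6, 49.97, 62.9 and 59.4 (Ag+Costim 1 to 5), with a log2 fold change of -0.76 ± 0.18 (SE) and FDR = 0.00869. Its Ag+Costim libraries lay below Naive 1 to 4 and around Naive 5. Ddit3, which codes for the ER stress factor CHOP, was at 20.9, 20.4, 20.9, 21.6 and 7.64 (Naive 1 to 5), 20.5, 9.71, 11.3, 21.2 and 9.45 (Ag 1 to 5) and 8.35, 7.07, 6.61, 4.996 and 6.81 (Ag+Costim 1 to 5), with a log2 fold change of -1.44 ± 0.31 (SE) and FDR = 0.00598, with Ag 1 and Ag 4 at the level of Naive 1 to 4 and Naive 5 within the Ag+Costim range. Atf4 was not called (0.03 ± 0.11, FDR = 0.860). Hspb11 (-0.67 ± 0.19, FDR = 0.0145), the only gene called of 2 tested whose symbol begins with Hspb, and Bag5 (-0.42 ± 0.13, FDR = 0.0193) fell. In Ag against Naive, Erp29 rose and Bag5 and Hsf1 fell. That is 1.70% and 3.39% of the 59 partners tested, against 3.05% and 3.66% of all genes tested. In Ag+Costim against Ag no partner was called. At an unadjusted p under 0.05 in edgeR's test, 11 of the 59 were higher and 2 lower, against 7.28% and 19.5% of all genes tested.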

How the data were processed

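Total RNA of sorted CD8+ T cells was sequenced after amplification of cDNA, in single reads that do not mark strand. Per the submitters' processing notes and methods, the authors aligned reads to mm10 with HISAT2 2.1.0, handled alignments with SAMtools 1.9 and ran StringTie 2.1.0, and the deposited gene and transcript tables hold its estimated counts as whole numbers. Which annotation and read length the counting assumed is not given in the sources used here. The authors' comparisons used DESeq2 1.30.1 in R 4.0.5. The deposited quality table of the sequencing core gives the count of sequenced reads, the lane, an input amount without a unit and 2 columns in percent, of which one is the share aligned. The deposited FPKM table and sample sheet were not used.

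Of 81881 entries in the gene table, 55536 matched GENCODE M21 (GRCm38). No library size or test used the 26248 entries named by a number alone, which held 0.0818% of counts, or 97 entries with 0 counts. Groups came from the labels. The authors' figure legends give n = 5 per group and call each column an individual biological replicate. Which libraries shared donor cells or a round of transfer is not stated, so p-values measure the spread between these libraries. Between libraries of a group, chi-square per degree of freedom was at least 5.62, so none was counted as a repeat. The test was that of edgeR 4.0.16, run in R 4.3.3 (filterByExpr, TMM, robust glmQLFit with 1 coefficient per group over all 15 libraries, two-sided glmQLFTest, Benjamini-Hochberg FDR under 0.05 over all 17366 genes). The script was tested on simulated data. CPM per kilobase is the sum over transcripts of CPM divided by transcript length. Alternatives were DESeq2 1.42.0, limma 3.58.1 voom with sample quality weights, library totals alone, no filter, the 10 libraries of a comparison alone, lane as a term, 1 lane alone, a replicate block, leaving out Ag 3 and Naive 5 together, leaving out each library in turn and, chosen after seeing the data, library sizes over all genes.

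The genes, their locations, the partner list and the markers were chosen with earlier results of these data known. Named were 32 genes whatever their values, the 4 highest and 4 lowest log2 fold changes of each comparison among genes whose higher group averaged 5 CPM or more, the 5 highest and 5 lowest called partners with the same minimum, Hsf1, Xbp1, Atf4, Calr and P4hb whatever their values, and every gene behind a count of 5 or fewer. Other genes were named after their values were seen. Promoter sequences are those of RefSeq on GRCm38.p6. Protein sequence features were not analysed here.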

Additional observations from a re-analysis of the deposited data

Results flagged for a closer look

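In groups of 5 libraries, the highest or lowest value was set against the others by Dixon's ratio, with a critical value of 0.71. Of 150 groups examined (the named genes and the location sums), 14 held such a value. A rate of 1 in 20, or 7.5, would hold only for independent, normally distributed groups. These groups share the same libraries and the sums contain named genes, so that rate is not an expectation here. The library concerned was Ag+Costim 4 in 7 cases, Naive 5 in 3, Ag 3 in 2, and Ag 1 and Ag+Costim 3 in 1 each.

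Ag+Costim 4 was high for genes of several locations. Its CPM was 1700 for Hspa5 against 1074 to 1223 in the other Ag+Costim libraries, 1615 for Pdia3 against 1272 to 1362, 334 for Dnaja1 against 256 to 270.2, 187 for Dnajc2 against 161 to 165, and 168 for Hspe1 against 108 to 124. For the inducible Hsp70 genes it was 6.68 for Hspa1a against 0.486 to 1.63 and 9.60 for Hspa1b against 0.928 to 3.41.

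Naive 5 was high for Hspa4 (276 CPM against 140 to 178 in Naive 1 to 4), for Pdia4 (339 against 166 to 207) and for the ER sum (4474 against 2277 to 2883). Its proliferation marker sum was 2078 CPM, against 92.0 to 758 in Naive 1 to 4. In Ag 3, Hspa1a was at 3.27 CPM (0.358 to 1.00 in the other Ag libraries) and Dnajc25 at 15.5 (2.08 to 4.48). In Ag 1, Hspa2 was at 3.96 CPM (7.30 to 8.14 in the others), and in Ag+Costim 3, Dnajb14 was at 2.60 (1.22 to 1.60).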

How the results depend on the processing

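In Ag against Naive, the count of genes that rose (2) was 5 with DESeq2, 6 with voom, 7 without Ag 3 and Naive 5, and 0 with no filter, with the 10 libraries of the comparison alone or with a lane term. The count that fell (2) was 4, 9, 4, 0, 0 and 0 under the same settings in that order, 1 with library totals alone and 4 with the replicate block. For partners (3) it was 6, 16, 15, 0, 0 and 0, and 5 with the replicate block. Leaving out 1 library gave 0 to 6, 0 to 5 and 0 to 12. In Ag+Costim against Ag, where no gene or partner was called, DESeq2 gave 6 higher, 1 lower and 8 partners, voom 36, 10 and 48, and leaving out 1 library 0 to 9, 0 to 3 and 0 to 11. For partners it was 1 with library totals alone or library sizes over all genes and 6 without Ag 3 and Naive 5. In Ag+Costim against Naive, 27 higher became 3 with a lane term and 12 to 32 without 1 library. The 9 lower became 17 with voom or the 10 libraries alone, 14 with library totals alone, 4 with no filter, 1 with a lane term and 5 to 13 without 1 library. The 33 partners became 52 with voom, 1 with a lane term and 11 to 41 without 1 library. The causes were not tested. Counts over all genes are given above for only some of these settings, so a general change in the number of calls is not set apart.

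Under the other settings run, these counts stayed within 1.5 times: 31 higher and 9 lower with DESeq2, 30 and 7 with library sizes over all genes, and 27 and 9 with the replicate block in Ag+Costim against Naive. Every called gene kept its direction in every alternative of its comparison. Among genes edgeR did not call in a comparison, voom called 5 in the other direction: Dnajc15 in Ag+Costim against Ag (from -0.06 to 0.31, log2), Bag1 (-0.01 to 0.62) and Erp29 (-0.04 to 0.26) there, and Dnajc8 (0.03 to -0.30) and Lonp1 (0.07 to -0.50) in Ag against Naive. Same-numbered libraries correlated by -0.324 to 0.470 in their deviations from group means, so the numbers were not taken to pair them, and the replicate block gave 3 higher and 4 lower genes in Ag against Naive and 0 and 0 in Ag+Costim against Ag. A fit within 1 lane could not be made for Ag against Naive, since no lane holds both. Depth limits the low genes: Hspa1a, Hspa1b, Hspa2 and Dnajc28 rest on few counts, most of all in Ag 3, and the Hspa1b call was lost without any 1 of Naive 1, 3, 4 and 5 or of Ag+Costim 2 and 4.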
